A study of Mus musculus with 2 samples.

Results

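Resting-type regulatory T (Treg) cells carrying Igfbp4 transcripts were taken from single-cell RNA libraries of mouse Treg cells. A member was a kept cell with at least 1 unique molecular identifier (UMI, the tag that marks 1 captured transcript) of Igfbp4, at least 1 UMI in total of Ccr7 and Satb1, and at most 1 of Ccl5, Il10 and Klrg1 detected. Of 23896 kept cells, 2865 met this rule. The Mito-high library held 2692 of them and the Mito-low library 173. Members were thus chosen by the UMI counts of these 6 genes, so their values, and every contrast of members with other cells, are given as description and support nothing.

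MitoTracker, a mitochondrial dye, had been used to stain the Treg cells, and sorting on its signal split them into a bright and a dim population, Mito-high and Mito-low. By its title, the series concerns copper and how well Treg cells suppress. Each population gave 1 library, made with a 10x Genomics 5′ kit from 12000 loaded cells. Tissue, strain, sex, age and treatment of the mice, and any pooling of animals, are not stated in the sources used here. With 1 library per population there was no replicate, no test, no standard error and no p-value. Every interval below is a 95% interval for counting error alone, and it treats UMIs as independent although those of 1 cell are not. The dye fraction and the library cannot be told apart.

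Treg cells restrain other immune cells under the transcription factor Foxp3. In mice, resting (central) Treg cells circulate through lymphoid organs: the chemokine receptor Ccr7 brings them into lymph nodes, the receptor S1pr1 lets them out, and the transcription factor Klf2 sustains S1pr1. Effector Treg cells lose this programme and gain Klrg1, Il10, chemokines and receptors for peripheral tissue. Satb1 organises chromatin in developing T cells, and Igfbp4 encodes a secreted protein that binds insulin-like growth factors.

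The Mito-high library held 89996794 UMIs over 12352 barcodes, and the Mito-low library 60688904 UMIs over 11901 barcodes. The median kept cell held 6132 UMIs for Mito-high and 4668 for Mito-low. Members held a median of 6438 UMIs in Mito-high, against 6031 in the other Mito-high cells. Mito-low members held 5748, against 4654 in the other Mito-low cells. Of the barcode sequences, 38 occurred in both libraries. Among Mito-high members, 10 had a barcode that was also kept in Mito-low, and no barcode was a member in both. No doublet caller was applied to these cells: 67 Mito-high members and 0 Mito-low members exceeded 20000 UMIs, and 2 Mito-high members carried 3 or more of 6 B cell markers.

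Members made up 22.03% of kept Mito-high cells (interval 21.3 to 22.8, 2692 of 12217) and 1.48% of kept Mito-low cells (1.27 to 1.72, 173 of 11679), a ratio of 14.9. Igfbp4 was the most selective element of the rule. An Igfbp4 UMI was found in 22.7% of Mito-high cells and 1.61% of Mito-low cells. A Ccr7 or Satb1 UMI was found in 88.5% of Mito-high cells and 44.7% of Mito-low cells, and 98.6% of Mito-high cells and 86.9% of Mito-low cells passed the limit on Ccl5, Il10 and Klrg1. Of the cells with an Igfbp4 UMI, 97.1% in Mito-high and 92.0% in Mito-low were members. Cells that passed the other conditions without Igfbp4, called counterparts below, made up 65.8% of Mito-high cells and 38.8% of Mito-low cells.

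These shares were also taken by depth. Below 3000 UMIs, 7.58% of Mito-high cells and 0.710% of Mito-low cells were members. Between 4000 and 6000 UMIs, 23.0% of Mito-high cells and 1.496% of Mito-low cells were members, a ratio of 15.4. At 12000 UMIs and over the shares were 23.8% for Mito-high and 2.65% for Mito-low, a ratio of 8.98. Across 6 depth bins the Mito-high share was between 7.71 and 21.8 times the Mito-low share, and the intervals of the libraries overlapped in none of them. When every cell was thinned to 2000 UMIs before the rule was applied, 10.0% of Mito-high cells and 0.608% of Mito-low cells were members.

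**Figure D1:**
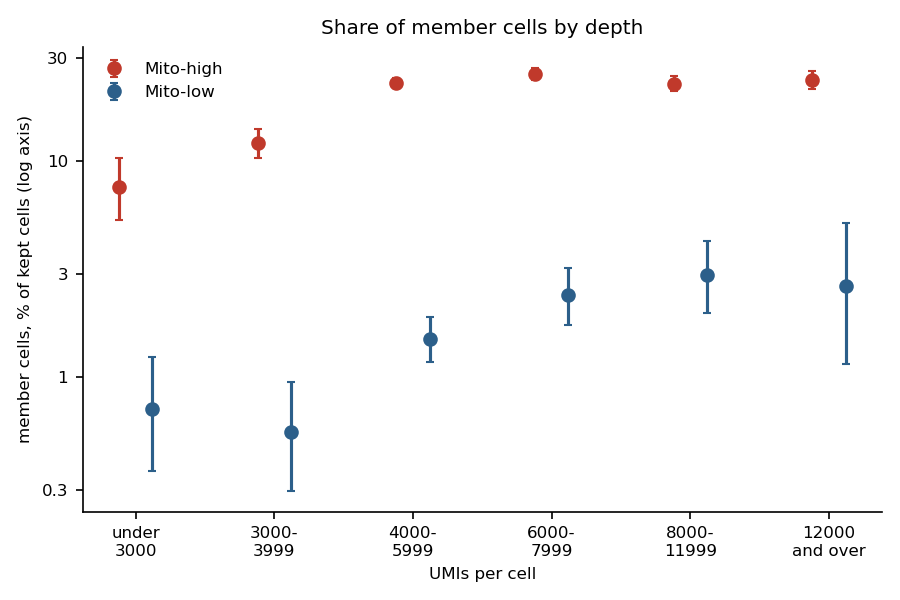
Members as a percentage of kept cells (vertical log axis) in 6 bins of UMIs per cell, for Mito-high (red) and Mito-low (blue); bars are 95% Clopper-Pearson intervals for counting error. In each bin the Mito-high share lies above the Mito-low share, and both are lower below 4000 UMIs than above.

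Igfbp4 was also read in effector cells and in B cell-like cells. Neither group is known to lack it, so their shares set no background level. Effector cells, with 2 or 3 of Ccl5, Il10 and Klrg1, showed an Igfbp4 UMI in 6 of 171 Mito-high cells (3.51%, 1.30 to 7.48, median 8904 UMIs) and 3 of 1533 Mito-low cells (0.196%, 0.0404 to 0.571, median 5293 UMIs). In B cell-like cells it was found in 2 of 24 Mito-high cells (8.33%, 1.03 to 26.997), at a median of 3134.5 UMIs. The Mito-high share of all cells with an Igfbp4 UMI lay above the effector interval, while the B cell-like interval is too wide to place it. The Mito-low share lay above the Mito-low effector interval. Effector cells were chosen by genes of the rule, so these comparisons are description only. The part of free RNA in members, including those with a single Igfbp4 UMI, was not tested.

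Of Mito-high members, 41.6% had 1 Igfbp4 UMI, 21.4% had 2 and 37.0% had 3 or more. Of Mito-low members, 54.3% had 1, 23.1% had 2 and 22.5% had 3 or more. Igfbp4 itself stood at 3.37 UMIs per 10000 (3.30 to 3.45) in Mito-high members and 3.13 (2.80 to 3.48) in Mito-low members, intervals that overlap. Both Ccr7 and Satb1 were seen in 78.8% of Mito-high and 68.2% of Mito-low members. Ccr7 alone was seen in 8.21% of Mito-high and 11.6% of Mito-low members, and Satb1 alone in 13.0% of Mito-high and 20.2% of Mito-low members. A UMI of 1 of Ccl5, Il10 and Klrg1 was seen in 4.75% of Mito-high and 10.98% of Mito-low members.

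Just inside and just outside the rule, cells looked as follows. The 128 Mito-high members with 1 of Ccl5, Il10 and Klrg1 held S100a6 at 2.76 and Klf2 at 10.4 per 10000, while the 4 Mito-high cells that failed with 2 of them held S100a6 at 6.86 and Klf2 at 8.97. In Mito-low the 19 members with 1 of the 3 genes held S100a6 at 5.15, and only 1 cell failed with 2. The 74 Mito-high cells that failed for lack of Ccr7 and Satb1 had Igfbp4 at 3.62, Klf2 at 9.95 and S100a4 at 2.69 per 10000. Members with a single Igfbp4 UMI held S100a4 at 0.783 in Mito-high.

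Igfbp4 (chromosome 11, 99041244 to 99054392, plus strand, GRCm38, the assembly also called mm10) and Ccr7 (chromosome 11, 99144196 to 99155077, minus strand) lie 89.8 kb apart. The 6 other tested genes around them lay between -0.27 and 0.10 in the log2 ratio of members over other cells in Mito-high, and between -0.50 (Wipf2) and 0.02 in Mito-low. Smarce1, a chromatin remodelling subunit 154.7 kb from Igfbp4, had -0.11 in Mito-high and -0.18 in Mito-low. Rara, the retinoic acid receptor alpha gene, had -0.07 in Mito-high and -0.17 in Mito-low. Satb1 lies on chromosome 17 (51736187 to 51833290), Klf2 on chromosome 8 (72319033 to 72321656) and Ly6c1 on chromosome 15 (75044018 to 75048830).

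The label was set against marker genes. Treg identity genes were present: Ctla4, the inhibitory receptor, was detected in 91.5% of Mito-high and 91.9% of Mito-low members, and Il2ra, which gives the interleukin-2 receptor its high affinity, in 67.4% of Mito-high and 67.1% of Mito-low members. Foxp3 was seen in only 17.1% of Mito-high members, against 15.7% of other Mito-high cells, and in 16.8% of Mito-low members, against 17.4% of other Mito-low cells. After thinning to 2000 UMIs the Foxp3 shares were 5.22% of Mito-high members, against 5.10% of other Mito-high cells, and 5.26% of Mito-low members, against 7.77% of other Mito-low cells. Markers of other cell types were read as summed levels in members. The 6 B cell markers summed to 0.135 per 10000 in Mito-high and 0.0740 in Mito-low members, against 68.9 in B cell-like cells, and 4 of the 6 were at 0 in Mito-low members. The 5 NK cell markers summed to 0.0101 in Mito-high and 0.00925 in Mito-low members. The 2 CD8 T cell markers summed to 0.0803 in Mito-high and 0.0925 in Mito-low members, and the 6 myeloid markers to 0.672 in Mito-high and 0.750 in Mito-low members. The 3 follicular markers summed to 0.560 in Mito-high and 0.731 in Mito-low members, and the 6 conventional effector CD4 markers to 0.190 and 0.324. The myeloid and follicular sums lay above the level of Foxp3 alone, 0.265 in Mito-high and 0.342 in Mito-low members, but a sum and 1 gene are unlike measures. Only Cst3 of the myeloid and Bcl6 of the follicular markers reached 0.2 per 10000 in members or other cells. The log2 ratio of members over other cells was -0.42 in Mito-high and -0.50 in Mito-low for Cst3. For Bcl6 it was -0.01 in Mito-high and 0.65 in Mito-low. Trdc, the delta T cell receptor constant gene, stood at 0.0471 in Mito-high and 0.222 in Mito-low members, where 9 cells held its 24 UMIs. Its log2 ratio in Mito-low was 2.56 for members over other cells and 2.24 for members over counterparts.

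Most but not all members were without many cell cycle transcripts. A UMI of 8 or more of 36 S, G2 and M phase genes was seen in 173 of 2692 Mito-high members (6.43%, 5.53 to 7.42), against 844 of 9525 other Mito-high cells (8.86%). It was seen in 0 of 173 Mito-low members (interval 0 to 2.11), against 98 of 11506 other Mito-low cells (0.852%).

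Members were next described against all other cells of their own library. Levels are UMIs per 10000 summed over a group, and log2 ratios carry a pseudocount of 1 UMI on each sum. Of 5407 genes at 0.2 per 10000 or more in Mito-high, 33 (0.61%) were at least 1.5-fold higher in members and 243 (4.49%) at least 1.5-fold lower. Of 5826 genes in Mito-low, 272 (4.67%) were higher and 984 (16.9%) lower. Of the higher genes, 2 in Mito-high and 3 in Mito-low were genes of the rule, as were 1 and 3 of the lower genes. Lower genes outnumbered higher ones in both libraries. Without the filter on low genes the counts were 4664 higher and 2929 lower in Mito-high, and 10399 higher and 2490 lower in Mito-low. Those counts give no direction, because the pseudocount raises the ratio of genes with very few UMIs in the smaller group, the members. Rapgefl1, for example, had 0 in Mito-low members and 0.00118 per 10000 in other Mito-low cells, yet a log2 ratio of 2.78. Without cells showing 8 or more cell cycle genes, 21 genes were higher in Mito-high members and 234 lower. With edgeR's TMM scaling the counts were 57 higher and 194 lower in Mito-high, and 439 higher and 690 lower in Mito-low. With totals that leave out mitochondrially encoded, ribosomal protein and receptor genes they were 57 higher and 195 lower in Mito-high, and 505 higher and 628 lower in Mito-low. These scalings moved the median ratio of all genes by 0.08 in Mito-high and by 0.13 and 0.17 in Mito-low. Of 5264 genes tested in both libraries, 32 (0.608%) were higher in each and 211 (4.01%) lower in each, and 0 passed in opposite directions.

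Genes of rest and of lymph node homing stood higher in members. Of 29 tested, 4 were at least 1.5-fold higher and 0 lower in Mito-high (median log2 ratio 0.32, against -0.09 over all genes), and 17 were higher and 1 lower in Mito-low (median 0.93, against -0.17). The shares over all genes were 0.61% higher and 4.49% lower in Mito-high, and 4.67% higher and 16.9% lower in Mito-low. Ly6c1, a surface glycoprotein of resting Treg and memory T cells, stood at 0.607 per 10000 in Mito-high members, against 0.293 in other Mito-high cells, and at 0.740 in Mito-low members, against 0.0987 in other Mito-low cells. It was detected in 22.9% of Mito-high members, against 10.96% of other Mito-high cells, and in 23.7% of Mito-low members, against 2.91% of other Mito-low cells. Ly6c1 has a close paralog, Ly6c2, between which reads may be split; Ly6c2 was counted at 0.0250 in Mito-high and 0.0555 in Mito-low members. The Ly6c1 levels of the members of both libraries had overlapping intervals, at 0.574 to 0.642 in Mito-high and 0.587 to 0.921 in Mito-low.

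Klf2 stood at 14.4 per 10000 (14.3 to 14.6) in Mito-high members, against 9.91 in other Mito-high cells, and at 13.0 (12.3 to 13.7) in Mito-low members, against 5.62 in other Mito-low cells. Bcl2, which protects against apoptosis, stood at 5.26 in Mito-high members, against 3.26 in other Mito-high cells, and at 6.64 in Mito-low members, against 1.53 in other Mito-low cells. Foxp1, a transcription factor that maintains T cell quiescence, had 13.4 in Mito-high members, against 9.004 in other Mito-high cells, and 13.5 in Mito-low members, against 4.83 in other Mito-low cells. Set against Mito-low members, Mito-high members had a log2 ratio of 0.15 for Klf2, -0.34 for Bcl2 and -0.02 for Foxp1. Dapl1 had the largest ratio of the list, 2.13 in Mito-high and 4.67 in Mito-low, at low levels of 0.377 in Mito-high and 0.546 in Mito-low members. In Mito-low, 4 of the 29 had a ratio below 0, and of these Ramp3, a receptor activity-modifying protein, was at least 1.5-fold lower, at 0.444 in members against 0.772 in other cells. Of 12 genes of a quiescence list, 0 were at least 1.5-fold apart in Mito-high (median 0.09), with Foxp1 at 0.57 and Slfn2 at -0.22 at its ends. That count is near the 0.61% of all genes higher and 4.49% lower in Mito-high. In Mito-low 2 of the 12 were higher, Foxp1 (1.48) and Klf2 (1.21), and 0 lower (median -0.06). There 4.67% of all genes were higher and 16.9% lower.

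**Figure D2:**
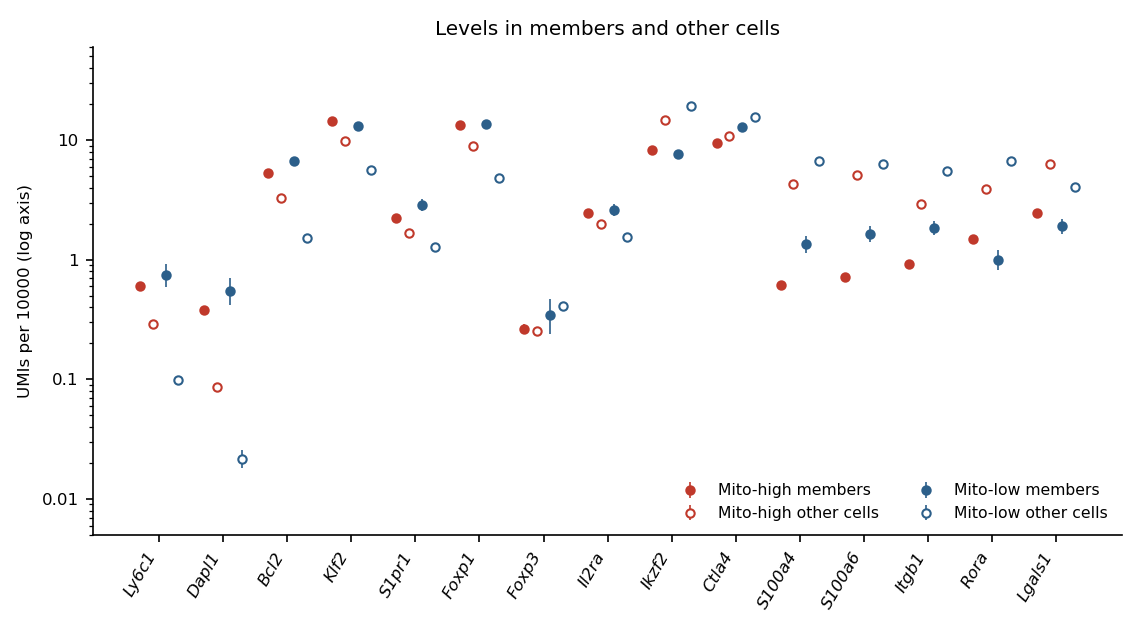
UMIs per 10000 (vertical log axis) of resting genes (left), Treg identity genes (middle) and effector genes (right) in members (filled) and other cells (open) of Mito-high (red) and Mito-low (blue); bars are 95% Poisson intervals, hidden where shorter than the point. Resting genes are higher in members than in the other cells of the same library and effector genes lower, as for Ly6c1 and S100a4.

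Effector and tissue Treg genes stood lower in members. Of 28 tested in Mito-high, 24 were at least 1.5-fold lower and 0 higher (median -1.38). Of 34 in Mito-low, 30 were lower and 0 higher (median -1.76). S100a4, a calcium-binding protein of migrating cells, had 0.618 per 10000 in Mito-high members, against 4.26 in other Mito-high cells, and 1.35 in Mito-low members, against 6.74 in other Mito-low cells. S100a6, its relative, had 0.714 in Mito-high members, against 5.09 in other Mito-high cells, and 1.65 in Mito-low members, against 6.29 in other Mito-low cells. Itgb1, the beta-1 integrin, had 0.919 in Mito-high members, against 2.90 in other Mito-high cells, and 1.85 in Mito-low members, against 5.47 in other Mito-low cells. The interval of each of these 3 genes in members lay below that of the other cells of the library. Rora, a nuclear receptor of tissue T cells, had 1.48 in Mito-high members, against 3.88 in other Mito-high cells, and 0.999 in Mito-low members, against 6.64 in other Mito-low cells. Ccr2, an inflammatory chemokine receptor, had a log2 ratio of -3.13 in Mito-high and -3.09 in Mito-low. The limited genes were low by rule. Ccl5 stood at 0.0274 in Mito-high and 0.167 in Mito-low members, Il10 at 0.0452 in Mito-high and 0.130 in Mito-low members, and Klrg1 at 0.0149 in Mito-high and 0.0185 in Mito-low members.

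The Treg identity list was mixed. In Mito-high 5 of 17 genes were at least 1.5-fold lower in members and 0 higher (median -0.19), and in Mito-low 10 were lower and 2 higher (median -0.60). All genes gave 4.49% lower and 0.61% higher in Mito-high, and 16.9% lower and 4.67% higher in Mito-low. Ikzf2, which encodes Helios, stood at 8.24 per 10000 in Mito-high members, against 14.8 in other Mito-high cells, and at 7.64 in Mito-low members, against 19.2 in other Mito-low cells. It was detected in 71.5% of Mito-high members, against 86.3% of other Mito-high cells, and in 68.8% of Mito-low members, against 93.1% of other Mito-low cells. Gpr83, a G protein-coupled receptor of Treg cells, was at the upper end of the list, with log2 ratios of 0.52 in Mito-high and 1.68 in Mito-low. Foxp3 stood at 0.265 in Mito-high members, against 0.256 in other Mito-high cells, and at 0.342 in Mito-low members, against 0.411 in other Mito-low cells. Its interval of the ratio included 0 in both libraries, at -0.09 to 0.19 in Mito-high and -0.77 to 0.20 in Mito-low.

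By the rule for named genes, the 12 highest genes shared by both libraries also held Fgf13, a fibroblast growth factor homologue that acts inside the cell, at 0.709 per 10000 in Mito-high members, against 0.358 in other Mito-high cells, and at 1.11 in Mito-low members, against 0.260 in other Mito-low cells. Grap2, an adaptor of T cell receptor signalling, stood at 3.84 in Mito-high members, against 2.15 in other Mito-high cells, and at 5.81 in Mito-low members, against 2.46 in other Mito-low cells. The rule for named genes itself asked for the same sign in both libraries. Txnip, an inhibitor of glucose uptake and thioredoxin, stood at 2.59 in Mito-high members, against 1.61 in other Mito-high cells, and at 3.28 in Mito-low members, against 1.53 in other Mito-low cells. Ifngr2, the signalling chain of the interferon gamma receptor, stood at 1.25 in Mito-high members, against 0.819 in other Mito-high cells, and at 1.14 in Mito-low members, against 0.409 in other Mito-low cells. Cd86, a costimulatory ligand better known from antigen-presenting cells, stood at 0.856 in Mito-high members, against 0.526 in other Mito-high cells, and at 1.47 in Mito-low members, against 0.816 in other Mito-low cells. Between 4000 and 6000 UMIs per cell the Mito-high ratio was below 1.5-fold for Bcl2 (0.47), Txnip (0.48), Ifngr2 (0.18) and Cd86 (0.54). Galnt10, Ugcg, St8sia1, St8sia6 and Gm2682 completed this group with Ly6c1 and Bcl2. The 12 lowest genes held Nkg7, S100a11, Runx2, Plcb4, Bcl2a1d, Stx11, Hdac9 and Eea1 beside S100a4, S100a6, Itgb1 and Rora. Bcl2a1d belongs to a family of close copies, so its count is uncertain.

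**Figure D3:**
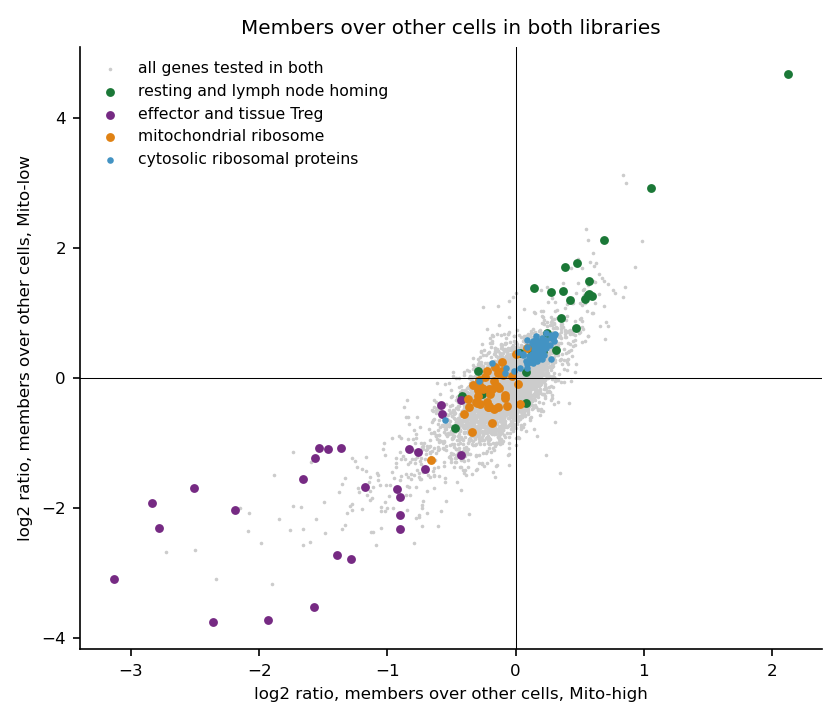
Log2 ratio of members over other cells in Mito-high (horizontal) and in Mito-low (vertical) for genes tested in both, without the 6 genes of the rule; colours mark 4 gene lists. Resting genes lie mostly in the upper right, with Dapl1 at 2.13 and 4.67, effector genes in the lower left, and ribosomal protein genes mostly above 0 in both.

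Other cells include those without Ccr7 and Satb1, so members were also set against their counterparts without Igfbp4. In Mito-high 18 of 5355 genes (0.336%) were at least 1.5-fold higher in members and 156 (2.91%) lower. In Mito-low 216 of 5741 (3.76%) were higher and 782 (13.6%) lower. Genes of the rule were 1 of the higher and 0 of the lower genes in Mito-high, and 3 of each in Mito-low. The Mito-low counterparts were thus not matched to members in the levels of the other rule genes. Of the resting genes, 2 of 29 were higher and 0 lower in Mito-high (median 0.27), and 16 were higher and 1 lower in Mito-low (median 0.64). Of the effector genes, 18 of 22 were lower in Mito-high (median -0.80) and 28 of 31 in Mito-low (median -1.42). Klf2 stood at 14.4 per 10000 in Mito-high members, against 10.8 in Mito-high counterparts, and at 13.0 in Mito-low members, against 6.36 in Mito-low counterparts. Ikzf2 stood at 8.24 in Mito-high members, against 14.4 in Mito-high counterparts, and at 7.64 in Mito-low members, against 17.6 in Mito-low counterparts. Both contrasts share the same members, so neither is independent of the other.

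Few genes of growth and metabolism were at least 1.5-fold apart between members and other cells, but most ribosomal protein genes stood higher in members. Over all genes 0.61% were higher and 4.49% lower in Mito-high (median -0.09), and 4.67% higher and 16.9% lower in Mito-low (median -0.17). In Mito-high, 0 of 36 nuclear complex I genes (median -0.17), 1 of 47 mitochondrial ribosome genes (median -0.20) and 0 of 79 cytosolic ribosomal protein genes (median 0.17) were at least 1.5-fold apart. These counts were near or below those shares. Of the 79 ribosomal protein genes, 73 were above 0. In Mito-low, 1 of 36 complex I genes (median -0.14) and 3 of 44 mitochondrial ribosome genes (median -0.18) were lower and 0 higher. Both counts of lower genes were below the share of all genes. Of 79 ribosomal protein genes, 8 were higher and 1 lower in Mito-low (median 0.43). Of 15 glycolysis genes, 0 were higher and 1 lower in Mito-high, and 1 was higher and 2 lower in Mito-low, counts near those shares. Mitochondrially encoded genes took a median of 3.23% of UMIs in Mito-high members, against 3.36% in other Mito-high cells, and 3.24% in Mito-low members, against 3.17% in other Mito-low cells. Thinned to 2000 UMIs, members showed fewer genes per cell in both libraries, with a median of 912 in Mito-high members, against 961 in other Mito-high cells, and 926 in Mito-low members, against 1029 in other Mito-low cells. Of 4 tested genes of the insulin-like growth factor axis, to which Igfbp4 belongs, 0 were apart in Mito-high and 2 were higher in Mito-low members (median 0.57). Igf1r, the main receptor, stood at 1.14 in Mito-high members, against 1.26 in other Mito-high cells, and at 1.41 in Mito-low members, against 1.04 in other Mito-low cells. Igf2r, the clearance receptor, stood at 0.906 in Mito-high members, against 0.776 in other Mito-high cells, and at 0.824 in Mito-low members, against 0.469 in other Mito-low cells.

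The contrast that the rule did not use is that between members of the 2 libraries. Of 5463 genes, Mito-high members had 212 (3.88%) at least 1.5-fold above Mito-low members and 356 (6.52%) as far below, with a median log2 ratio of -0.04. The counting interval lay wholly on 1 side of 0 for 206 of the 212 and 316 of the 356. Under TMM scaling the split turned to 309 higher and 237 lower. Between 4000 and 6000 UMIs per cell it was 292 higher and 1227 lower, with every cell thinned to 2000 UMIs 331 higher and 1027 lower, and without cells showing 8 or more cell cycle genes 137 higher and 351 lower. For scale, among the other cells 206 of 5792 genes (3.56%) were higher in Mito-high and 564 (9.74%) lower. The Mito-low members were few, with 1080659 UMIs in 173 cells, against 20808944 UMIs in 2692 Mito-high members, so a gene can rest on a handful of Mito-low cells.

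Resting genes lay close in the members of both libraries. Of 29 tested in members, 0 were higher and 3 lower in Mito-high (median -0.23), where 3.88% of all genes were higher and 6.52% lower. Of 28 tested in other cells, 12 were higher and 2 lower in Mito-high (median 0.46). Among all genes of other cells 3.56% were higher and 9.74% lower in Mito-high. The 2 medians stood on opposite sides of 0, and the difference between them was not tested. Members of both libraries were chosen for Igfbp4 and for Ccr7 or Satb1, and other cells were not, so this comparison is description only. The lower genes were Il7r, the interleukin-7 receptor, at 1.56 per 10000 in Mito-high and 2.76 in Mito-low members (log2 ratio -0.82, -0.99 to -0.64), Sidt1 (-0.73) and Ramp3 (-0.95). Il7r stood at -0.56 between 4000 and 6000 UMIs per cell, and Ramp3 at -0.32 when members needed 2 Igfbp4 UMIs, both below 1.5-fold. Lef1, a transcription factor of naive T cells, stood at 4.92 in Mito-high and 3.78 in Mito-low members (0.37, 0.24 to 0.52). Bach2, which restrains effector genes, stood at 8.98 in Mito-high and 7.15 in Mito-low members (0.33, 0.22 to 0.43), and S1pr1 at 2.23 in Mito-high and 2.89 in Mito-low members (-0.38, -0.54 to -0.20). Lef1 and Bach2 thus lay on the Mito-high side and S1pr1 on the Mito-low side, each by less than 1.5-fold. Klf2 differed by 0.15 (0.07 to 0.23) and Foxp1 by -0.02 (-0.09 to 0.06). The GIMAP family, GTPases of lymphocyte survival, had 0 of 8 genes apart (median -0.33), a count near the shares of all genes.

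Effector genes were lower in Mito-high members in part: of 21 tested, 9 were at least 1.5-fold lower and 3 higher (median -0.33), against 27 lower and 3 higher of 35 in other cells (median -1.02). All genes gave 6.52% lower and 3.88% higher in members, and 9.74% lower and 3.56% higher in other cells. Members of both libraries were chosen for at most 1 of Ccl5, Il10 and Klrg1, and other cells were not. The part of that choice in these medians was not tested. Itgae, the integrin of epithelial residence, stood at 0.0884 in Mito-high and 0.296 in Mito-low members (-1.78, -2.29 to -1.15), and Maf, a regulator of Il10, at 0.410 in Mito-high and 0.972 in Mito-low members (-1.26, -1.54 to -0.94). Entpd1, the ectonucleotidase CD39, stood at 0.0971 in Mito-high and 0.241 in Mito-low members (-1.36). S100a6 stood at 0.714 in Mito-high and 1.65 in Mito-low members (-1.21, -1.43 to -0.97). Its Mito-low UMIs lay in 24 cells, with 18.5% of them in 1 cell, and without the cells above 1% Gm42418 described below the ratio was -0.52, below 1.5-fold. S100a4 stood at 0.618 in Mito-high and 1.35 in Mito-low members (-1.14), but 12 Mito-low cells carried all of the S100a4 UMIs and 1 cell 19.2% of them. Between 4000 and 6000 UMIs per cell the S100a4 ratio was 0.00. The 3 higher genes were Anxa2 (0.95), Tnfrsf9 (0.76), which encodes the receptor 4-1BB, and Batf (0.66), a transcription factor of effector differentiation, the last named after its value was seen.

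Of the Treg identity genes, 1 of 16 was higher in Mito-high members and 2 were lower (median -0.02, or 0.05 under TMM scaling). Over all genes 3.88% were higher and 6.52% lower, so these counts were near that background. Swap70, a guanine nucleotide exchange factor, stood at 0.385 in Mito-high and 0.139 in Mito-low members (1.38, 0.74 to 2.32), Nrp1, the receptor neuropilin-1, at 0.616 in Mito-high and 0.953 in Mito-low members (-0.64), and Socs2, a suppressor of cytokine signalling, at 0.396 in Mito-high and 0.694 in Mito-low members (-0.83). Nrp1 stood at -0.56 under TMM scaling and Socs2 at -0.19 between 4000 and 6000 UMIs per cell, both below 1.5-fold. Foxp3 stood at 0.265 (0.243 to 0.288) in Mito-high and 0.342 (0.241 to 0.472) in Mito-low members, with overlapping intervals. Ctla4 was 9.40 in Mito-high and 12.8 in Mito-low members (-0.44, -0.52 to -0.36). Of 18 genes induced by the T cell receptor, Nr4a1, an immediate early nuclear receptor, was higher, at 3.80 in Mito-high and 2.12 in Mito-low members (0.84, 0.65 to 1.04). Nfkbid, a nuclear regulator of NF-kappaB, was lower, at 0.607 in Mito-high and 0.962 in Mito-low members (-0.68), and the list median was 0.18. With 1 gene of 18 on each side, this list was also near that background.

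Genes of nuclear-encoded mitochondrial proteins were slightly higher in Mito-high members, with few past 1.5-fold. Complex I had 2 of 36 higher (median 0.15), complexes II to IV 1 of 25 (median 0.17), ATP synthase 0 of 17 (median 0.16) and the mitochondrial ribosome 8 of 46 (median 0.31), and 0 of these genes were at least 1.5-fold lower. Over all genes 3.88% were higher and 6.52% lower. The counts of higher genes were near 3.88% for complex I, complexes II to IV and ATP synthase, and above it for the mitochondrial ribosome. Ndufc2, a complex I subunit, had a ratio of 0.71, and Sdhd, an anchor of succinate dehydrogenase, stood at 0.466 in Mito-high and 0.120 in Mito-low members (1.85, 1.17 to 2.87, 13 Mito-low UMIs). The mitochondrial ribosome genes Mrpl17, Mrpl27, Mrps25 and Mrps14 led that list with ratios of 0.85 to 0.67. In other cells the mitochondrial ribosome median was 0.32 and the complex I median 0.16, about the same as in members. The 13 mitochondrially encoded genes had a median of -0.09 and 0 apart. Depth and the cycling members moved with these values: at 4000 to 6000 UMIs the complex I median was -0.01 and the mitochondrial ribosome median 0.05, with Mrpl27 at -0.36 and Mrps25 at -0.10, and without cycling cells they were 0.04 and 0.18. Their part in the result was not tested beyond this. Chchd10, a protein of the mitochondrial intermembrane space, stood at 1.59 in Mito-high and 0.824 in Mito-low members (0.93, 0.64 to 1.27) and was between 0.64 and 1.01 under every alternative that recomputed it.

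Copper genes, which the series title points to, were read against the 3.88% of all genes that were higher in Mito-high members and the 6.52% that were lower. Of 9 tested genes of copper transport and use, 0 were at least 1.5-fold apart (median 0.25), a count near that background, with Commd1, a regulator of copper export, at 0.52 and Sod1, the copper-zinc superoxide dismutase, at -0.48 at the ends. Of 6 genes of copper-induced death, 0 were apart (median 0.04), with Fdx1 at 0.46. Slc31a1, the copper importer, was below the level for testing, with 0.106 (0.0922 to 0.121) in Mito-high members and 0.0740 (0.0320 to 0.146) in Mito-low members. The metallothionein Mt1 stood at 0.103 in Mito-high and 0.102 in Mito-low members, where 6 cells held its 11 UMIs and 1 of them 54.5%. Mt2 stood at 0.0120 in Mito-high members and at 0 UMIs in Mito-low members, where a floor of 3 UMIs over the group is 0.0278 per 10000. In the other cells Mt1 stood higher, at 0.260 in Mito-high and 0.533 in Mito-low.

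Cell cycle genes stood higher in Mito-high members. Of 11 S phase genes, 8 were higher in Mito-high (median 1.28), and of 3 G2 and M phase genes all 3 were (median 1.29). Among all genes 3.88% were higher. Stmn1, a microtubule regulator of dividing cells, stood at 1.32 in Mito-high and 0.139 in Mito-low members (3.15, 2.52 to 4.09), and Dut, which keeps uracil out of DNA, at 1.26 in Mito-high and 0.490 in Mito-low members (1.33, 0.97 to 1.78). Pclaf, a partner of the replication clamp, had 995 UMIs in Mito-high members and 0 in Mito-low members, at least 17.2-fold higher against a floor of 3 UMIs over the group. Birc5, the mitotic protein survivin, had 636 in Mito-high and 0 in Mito-low members, at least 11.01-fold higher, and 96 Mito-high members carried it. With these 2 genes at their bounds the list medians stayed at 1.28 and 1.29. Without cells showing 8 or more cycle genes the S phase median was 0.30 and the G2 and M phase median -0.99. Those cells were picked by genes of these same lists and were all in Mito-high, so that step lowers the medians by construction. At 4000 to 6000 UMIs the S phase median was -0.13 and the G2 and M phase median -1.54. The ratio of Stmn1 was 0.70 without cycling cells and -0.33 at 4000 to 6000 UMIs, and that of Dut 0.39 and -0.44. H2afz, a histone variant, was above 0 in the same settings, at 12.4 in Mito-high and 6.21 in Mito-low members (0.99), 0.70 without cycling cells and 0.44 at 4000 to 6000 UMIs.

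Other genes higher in Mito-high members were Snhg6, a small nucleolar RNA host gene, at 0.570 in Mito-high and 0.148 in Mito-low members (1.86, 1.24 to 2.76), and H2-T23, a non-classical major histocompatibility gene, at 1.87 in Mito-high and 0.694 in Mito-low members (1.41, 1.10 to 1.78). Itm2a, a membrane protein of activated and maturing T cells, stood at 0.697 in Mito-high and 0.287 in Mito-low members (1.24, 0.77 to 1.84), but at 0.39 between 4000 and 6000 UMIs per cell. H2-T23 was detected in 70.3% of Mito-high and 32.4% of Mito-low members. The other cells differed in the same direction, with Snhg6 at 0.564 in other Mito-high and 0.143 in other Mito-low cells, and H2-T23 at 1.96 in other Mito-high and 0.878 in other Mito-low cells. Sox4, a transcription factor of thymocytes, stood at 0.220 in Mito-high and 0.0463 in Mito-low members (1.99), the Mito-low value resting on 5 UMIs.

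**Figure D4:**
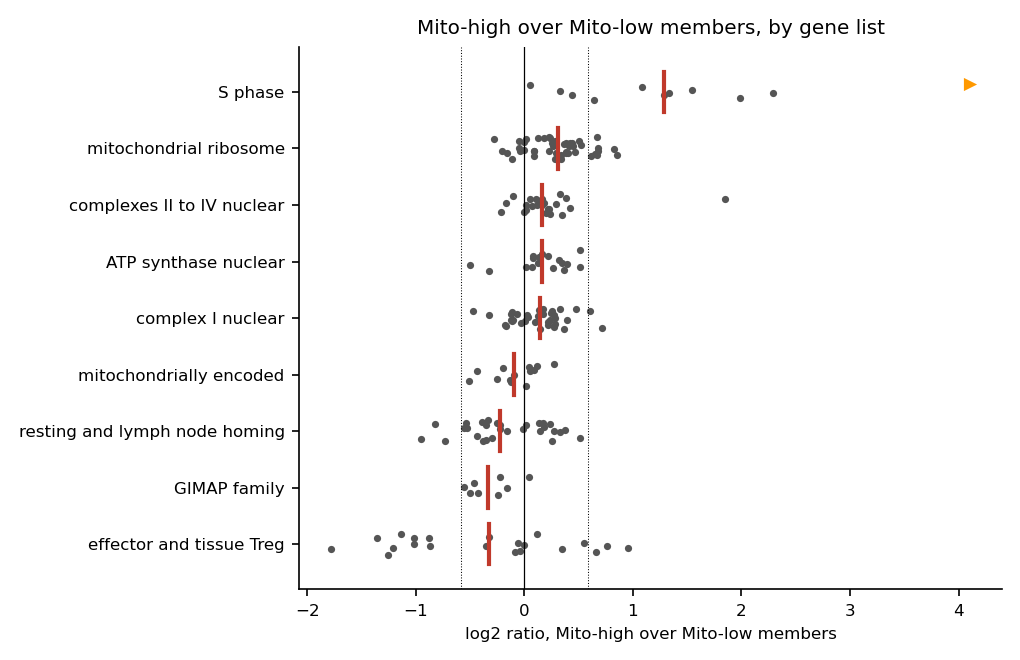
Log2 ratio, Mito-high members over Mito-low members, for each tested gene (points) of 9 lists, with list medians in red and 1.5-fold as dotted lines; the orange triangle is Pclaf at its lower bound. S phase genes lie highest (median 1.28), mitochondrial ribosome genes slightly above 0 (0.31) and effector genes spread on both sides (-0.33).

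Gm42418, an annotated gene that overlaps ribosomal RNA sequence, was the lowest gene in Mito-high members, at 13.5 per 10000, against 84.7 in Mito-low members (-2.65, -2.68 to -2.61). It exceeded 1% of the UMIs in 31 of 2692 Mito-high members (1.15%, 0.784 to 1.63) and in 45 of 173 Mito-low members (26.0%, 19.6 to 33.2). Among other cells it did so in 1.70% of those of Mito-high and 8.64% of those of Mito-low. The 45 Mito-low members had a median of 4646 UMIs, with Ccr7 at 2.99, Klf2 at 10.7 and S100a6 at 3.76 per 10000. The remaining 128 Mito-low members had a median of 6019.5 UMIs, with Ccr7 at 5.19, Klf2 at 13.7 and S100a6 at 1.02. Without cells above 1% the member share ratio was 18.4, and Gm42418 itself still stood at -0.75. Lars2, another gene with ribosomal RNA-like sequence, had a ratio of -1.60 with these cells and -0.42 without them, and Cmss1 -1.12 with and -0.44 without them. Iigp1, an interferon-induced GTPase, had -1.41 with and -0.87 without them, and Cdk8, a kinase of the Mediator complex, -1.39 with and -0.94 without them.

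**Figure D5:**
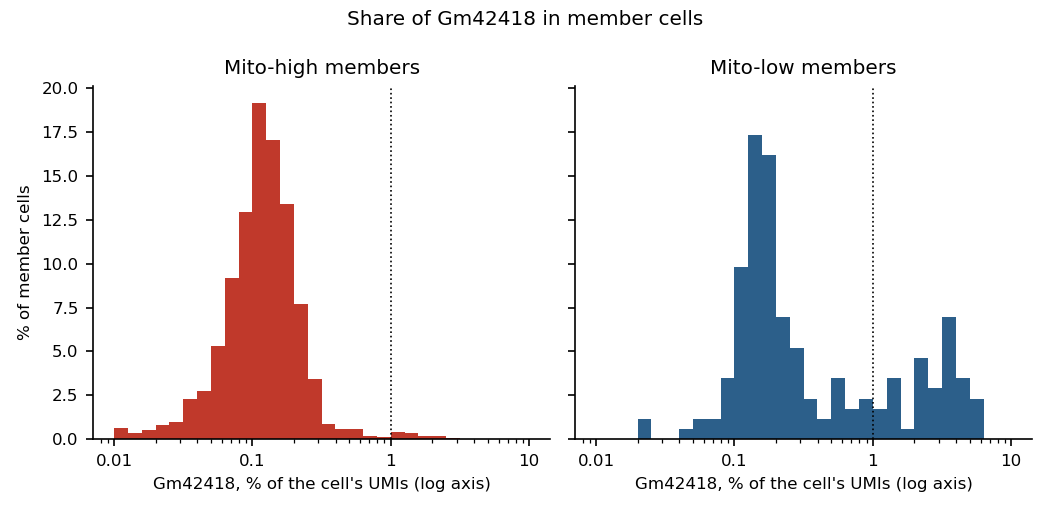
Distribution of Gm42418 as a percentage of the UMIs of each cell (horizontal log axis; cells below 0.01% are in the first bin) over Mito-high (left) and Mito-low (right) members, as a percentage of members; the dotted line marks 1%. Above it lie 1.15% of Mito-high and 26.0% of Mito-low members.

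Within Mito-high members, those with Ly6c1 were set against those without. Of 5235 genes other than Ly6c1, 11 (0.21%) were at least 1.5-fold higher in the 617 cells with Ly6c1 and 72 (1.38%) lower, against the 2075 without. Ly6a (1.60, 1.43 to 1.78), its neighbour in the Ly6 family, and St8sia6 (0.61) were higher, and Cd86 (-0.95), Areg (-0.78), which encodes the tissue repair factor amphiregulin, and Tnfrsf9 (-0.75) lower. These genes were chosen after their values were seen. Mito-high members with Ly6c1 held Ikzf2 at 6.14, Klf2 at 16.5 and Satb1 at 9.49 per 10000, and those without held Ikzf2 at 8.85, Klf2 at 13.8 and Satb1 at 6.82. In Mito-low the 41 members with Ly6c1 held Ikzf2 at 5.53, Klf2 at 15.1 and Satb1 at 9.51, and the 132 without held Ikzf2 at 8.37, Klf2 at 12.3 and Satb1 at 5.45. Ikzf2 was lower and Klf2 and Satb1, a gene of the rule, were higher beside Ly6c1 in both libraries. Ccr7 and S100a4 differed between the libraries. Mito-high members with Ly6c1 held Ccr7 at 4.86 and S100a4 at 0.800, and those without held 5.43 and 0.566. Mito-low members with Ly6c1 held Ccr7 at 4.77 and S100a4 at 0.145, and those without held 4.65 and 1.77.

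Members also varied with their number of Igfbp4 UMIs. Ikzf2 stood at 10.0 per 10000 in Mito-high members with 1 Igfbp4 UMI, 7.83 with 2 and 6.68 with 3 or more, and S100a4 at 0.783, 0.629 and 0.446. In Mito-low members Ikzf2 stood at 7.29, 9.62 and 6.27 in the same order of Igfbp4 UMIs. Median depth was 6151, 6356 and 6804.5 UMIs in the Mito-high cells, so depth moved with the split, and its part was not tested. Mito-high members with 3 or more Igfbp4 UMIs had 17 of 5258 genes other than Igfbp4 (0.323%) at least 1.5-fold above and 27 (0.514%) as far below members with 1. Cell cycle genes were among the higher ones: 4 of 4 tested G2 and M phase genes (median 1.03) and 4 of 14 S phase genes (median 0.46, all 14 above 0), with Rrm2, a ribonucleotide reductase subunit, at 1.33. Cells showing 8 or more cycle genes made up 8.33% of the members with 3 or more Igfbp4 UMIs, 5.22% of those with 2 and 5.35% of those with 1. Of 19 effector genes 4 were lower and 0 higher (median -0.42), led by Areg (-0.86), and of 29 resting genes 1, Dapl1 (0.85), was higher (median 0.02).

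Mito-high members were also split by Foxp3. The 460 Mito-high members with a Foxp3 UMI were deeper, with a median of 7413 UMIs, against 6257 in the 2232 without. Of 5269 genes other than Foxp3, 22 (0.418%) were at least 1.5-fold higher in members with Foxp3 and 2 (0.038%) lower. Members with Foxp3 held Igfbp4 at 2.92, Klf2 at 12.4 and Ikzf2 at 9.90 per 10000, and those without held Igfbp4 at 3.49, Klf2 at 14.9 and Ikzf2 at 7.82. Mki67, a marker of proliferating cells, had a log2 ratio of 0.85 and Stmn1 of 0.63, and cells showing 8 or more cycle genes made up 11.09% of members with Foxp3 and 5.47% of those without. The 2 lower genes were Isg15 (-0.63), an interferon-induced ubiquitin-like protein, and Cage1 (-0.61), named after their values were seen.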

How the data were processed

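Per the file headers, the deposited matrices held raw counts of UMIs for 32285 features in each of 2 libraries. Per the submitters' processing notes, Cell Ranger 7.1.0, Seurat 4.3.0.1 and mm10 were used. The sources used here state neither the annotation release nor any filter on barcodes. Barcodes with under 500 genes or over 20% mitochondrially encoded UMIs were left out (135 Mito-high, 222 Mito-low). UMIs were summed per library over members and over other cells and scaled to 10000. Genes at 0.2 per 10000 or more in at least 1 of the groups compared were used, with a pseudocount of 1 UMI, and 1.5-fold served only to describe size. Counts have exact Poisson, ratios exact conditional-binomial and shares Clopper-Pearson 95% intervals. The 38 symbols shared by several identifiers were summed. Coordinates are from the GENCODE annotation of GRCm38. Python 3.11.15, numpy 2.4.6, scipy 1.17.1 and edgeR 4.0.16 (TMM factors only) were used, and the steps were checked on simulated data.

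The members and the gene lists were chosen with earlier results of these data known. Named genes were the markers of the members and of Treg cells, the 12 highest and 12 lowest ratios of each contrast among genes at 0.5 per 10000 or more with at least 10 UMIs per group, and up to 4 genes and both ends of each list; others are named as chosen after their values were seen or by their role, and 2 genes that the rule names are not reported here. The rule for contrasts with other cells required the same sign in both libraries. Alternatives covered scaling, gene filters, the filters on cells, depth, and the conditions of membership.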

Additional observations from a re-analysis of the deposited data

How the results depend on the processing

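The ratio of the member shares was between 14.6 and 19.0 under the 9 alternatives run on all depths together or at 4000 to 6000 UMIs, and between 7.71 and 21.8 over the single depth bins. It moved most when members needed 2 or more Igfbp4 UMIs (19.0) or when cells above 1% Gm42418 were left out (18.4). These 2 alternatives and the one without cells showing 8 or more cycle genes were chosen after seeing the data. Counts of genes at least 1.5-fold apart moved more. For members over other cells in Mito-high, higher genes numbered 33 as reported, 57 with TMM factors, 57 with the restricted total, 4664 without a filter on low genes, 11 at 1 per 10000, 15 at 4000 to 6000 UMIs and 21 without cycling cells. Lower genes numbered 243, but 2929 without the filter and 54 at 1 per 10000. In Mito-low, higher genes numbered 272, but 439 with TMM, 505 with the restricted total, 10399 without the filter, 79 at 1 per 10000, 758 at 4000 to 6000 UMIs, 667 thinned and 457 with 2 or more Igfbp4 UMIs. Lower genes numbered 984, but 628 with the restricted total, 2490 without the filter and 279 at 1 per 10000. For Mito-high over Mito-low members, higher genes numbered 212, but 1091 without the filter, 32 at 1 per 10000, 331 thinned and 137 without cycling cells. Lower genes numbered 356, but 237 with TMM, 8726 without the filter, 48 at 1 per 10000, 1227 at 4000 to 6000 UMIs, 1027 thinned and 675 with 2 or more Igfbp4 UMIs. Settings without the filter test genes of very few UMIs, where the pseudocount raises the ratio towards the group with the smaller sum. Their split into higher and lower genes thus gives no direction. The thinned, depth-limited and 2-UMI settings leave fewer Mito-low UMIs by construction. Other causes were not tested. Mki67 reversed between the libraries' members, from 1.29 (8 Mito-low UMIs) to -1.54 at 4000 to 6000 UMIs and -1.78 without cycling cells. Of the values of single genes under alternatives, 441 stayed within their counting interval, 197 moved beyond it and 2 reversed. No paired analysis was possible because each population had 1 library.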

Other observations

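T cell receptor beta chain use was broad in members. The effective number of Trbv segments was 16.1 in Mito-high members (895 UMIs), against 15.6 in other Mito-high cells, and 15.5 in Mito-low members (71 UMIs), against 16.2 in other Mito-low cells. Trbv12-2 led in Mito-high members with 15.5% of Trbv UMIs, against 16.1% in other Mito-high cells. In Mito-low members Trbv2 led with 14.1%, on few UMIs, against Trbv12-2 with 13.9% in other Mito-low cells.

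Cytokine receptors were mixed in members. Il18r1, the interleukin-18 receptor, stood at 0.319 per 10000 in Mito-high members, against 0.660 in other Mito-high cells, and at 0.407 in Mito-low members, against 1.71 in other Mito-low cells. Il4ra, the interleukin-4 receptor, stood at 0.535 in Mito-high members, against 0.368 in other Mito-high cells, and at 0.740 in Mito-low members, against 0.504 in other Mito-low cells. Il1r2, the decoy receptor of interleukin-1, stood at 0.0649 in Mito-high members, against 0.276 in other Mito-high cells, and at 0.0648 in Mito-low members, against 0.311 in other Mito-low cells. Of 10 listed interferon-induced genes tested between the libraries' members, 0 were at least 1.5-fold apart (median -0.12), where 3.88% of all genes were higher in Mito-high members and 6.52% lower. Iigp1, given above at -1.41, was not on that list.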
